A study of Mus musculus with 6 samples.

Results

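The genes described are 10 members of the vascular endothelial growth factor (VEGF) and angiopoietin systems of the mouse. They are the ligands Vegfa, Vegfb and Vegfc, the VEGF receptors Kdr, Flt1 and Flt4, the angiopoietins Angpt1 and Angpt2, and the receptors Tek and Tie1. They form a fixed set of symbols, taken as members of these systems, and their rows were picked by symbol. The set was chosen with earlier results of these data known. All 10 were among the 24062 genes of the normalised table of the Twist2 line. Of them, 8 (not Vegfb and Vegfc) were among the 4939 genes of the table of both lines in CPM. Entry to the latter depended on measured values, namely the level and the difference between groups. CPM are reads scaled by an effective size of each library, which in the Twist2 line differed from its read total.

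RNA was sequenced from cells freshly sorted from hind limb skeletal muscle of adult C57BL/6 mice of 2 genotypes, Tw2-CreERT2/+;R26-tdTO+ and Pax7-CreERT2/+;R26-tdTO+. All mice carried a tamoxifen-inducible Cre and a tdTomato reporter and received tamoxifen in 3 doses, given on alternate days, 10 days before harvest, so a cell was labelled if it, or a cell it came from, had active Cre in that window. The groups are labelled cells of the Twist2 line (Tw2pos, 2 libraries), unlabelled cells of the Twist2 line (Tw2neg, 2 libraries), labelled cells of the Pax7 line (Pax7pos, 1 library) and unlabelled cells of the Pax7 line (Pax7neg, 1 library). The labels do not say that the 2 libraries of a group came from separate mice, so the p-values measure the spread between these libraries, which may be technical. The unlabelled groups are whatever cells of the digested muscle carried no label, not a single cell type.

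Twist2 averaged 161 ± 86.6 normalised counts in Tw2pos and 22.6 ± 0.871 in Tw2neg (SD, n = 2 each), while Pax7 had 303 CPM in Pax7pos, against 0.402 CPM in Pax7neg. The Twist2 libraries held 10902318 and 12425426 reads in Tw2pos and 13205751 and 13005707 in Tw2neg. The effective sizes behind their CPM were 9710688 and 10262454 in Tw2pos and 15312683 and 15643678 in Tw2neg. The genes of the CPM table held 6016469 reads in Pax7pos and 7565797 in Pax7neg. The 2 Tw2neg libraries stood farther apart than the 2 Tw2pos libraries, with a chi-square per degree of freedom between replicates of 13.7 in Tw2pos and 69.6 in Tw2neg. The 14 endothelial marker genes (Pecam1, Cdh5, Emcn and others) summed to 13875 and 11825 normalised counts in the Tw2pos libraries, against 52187 and 19705 in the Tw2neg libraries. They summed to 179 CPM in Pax7pos, against 1821 CPM in Pax7neg, and none of the 14 was at 0. In these bulk samples, fewer endothelial cells and less RNA of a gene per cell cannot be told apart.

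VEGF ligands are secreted by many tissues, among them muscle, and act on receptor tyrosine kinases that sit mainly on endothelial cells. VEGF-A signals through KDR (VEGFR2), the main driver of endothelial proliferation and sprouting, and also binds FLT1 (VEGFR1), which holds VEGF-A with high affinity and acts in part as a decoy. FLT4 (VEGFR3) is the receptor of VEGF-C and drives lymphatic growth. Angiopoietin-1, made largely by perivascular and mesenchymal cells, activates TEK (Tie2) and keeps vessels quiescent. Angiopoietin-2 competes for the same receptor and is released mainly by activated endothelium, and TIE1 is a partner of TEK with no strong ligand of its own.

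The sequences around the start sites of the 5 receptor genes are shown because 4 of these genes fell together in Tw2pos and Tek did not. Each runs from 250 bases before to 50 bases after the RefSeq start, on the strand of the gene, in build GRCm38.p6. Promoters were matched for 8 of the 10 genes. Capitals mark GGAA, the core recognised by ETS-family transcription factors, and TTCC, the same core read from the other strand. The Kdr window is chr5:75978406-75978705 (minus strand), the Flt1 window chr5:147725962-147726261 (minus strand), the Flt4 window chr11:49609429-49609728 (plus strand), the Tie1 window chr4:118489800-118490099 (minus strand) and the Tek window chr4:94739039-94739338 (plus strand).
Kdr: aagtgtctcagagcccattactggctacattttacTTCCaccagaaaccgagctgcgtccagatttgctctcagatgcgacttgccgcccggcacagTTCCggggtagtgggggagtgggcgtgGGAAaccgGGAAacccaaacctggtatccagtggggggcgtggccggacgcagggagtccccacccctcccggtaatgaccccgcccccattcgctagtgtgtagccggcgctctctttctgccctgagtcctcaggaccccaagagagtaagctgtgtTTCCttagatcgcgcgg
Flt1: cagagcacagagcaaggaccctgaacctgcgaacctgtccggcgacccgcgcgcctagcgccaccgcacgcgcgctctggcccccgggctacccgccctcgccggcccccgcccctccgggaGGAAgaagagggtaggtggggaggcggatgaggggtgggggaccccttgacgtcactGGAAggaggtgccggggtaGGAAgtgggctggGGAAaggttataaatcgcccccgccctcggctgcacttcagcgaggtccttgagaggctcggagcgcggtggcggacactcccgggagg
Flt4: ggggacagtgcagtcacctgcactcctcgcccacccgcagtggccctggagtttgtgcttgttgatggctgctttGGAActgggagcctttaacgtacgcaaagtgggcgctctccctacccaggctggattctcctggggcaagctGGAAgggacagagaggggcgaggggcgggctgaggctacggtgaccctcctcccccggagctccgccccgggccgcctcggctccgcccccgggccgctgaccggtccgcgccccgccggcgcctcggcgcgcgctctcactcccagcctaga
Tie1: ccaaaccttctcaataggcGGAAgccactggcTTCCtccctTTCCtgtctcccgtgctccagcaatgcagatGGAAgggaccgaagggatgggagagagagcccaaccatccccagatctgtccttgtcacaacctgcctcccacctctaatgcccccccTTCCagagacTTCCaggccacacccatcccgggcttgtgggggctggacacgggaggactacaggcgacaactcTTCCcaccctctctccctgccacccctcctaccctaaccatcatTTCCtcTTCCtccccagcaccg
Tek: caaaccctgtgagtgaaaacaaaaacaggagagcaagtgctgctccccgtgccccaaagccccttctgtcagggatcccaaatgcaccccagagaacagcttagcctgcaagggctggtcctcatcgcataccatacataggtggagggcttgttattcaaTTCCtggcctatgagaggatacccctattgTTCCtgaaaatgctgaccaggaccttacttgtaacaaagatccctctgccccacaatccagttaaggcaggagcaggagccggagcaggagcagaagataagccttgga

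Counted on both strands, the core occurred 5 times in the Kdr window, 4 times in the Flt1 window, 2 times in the Flt4 window, 9 times in the Tie1 window and 2 times in the Tek window. It is a short and common word: 96.0% of 32851 RefSeq promoter windows of the same length held at least 1 copy, with a median of 3. As many copies as in the Tie1 window were held by 1.59% of promoter windows, as many as in the Kdr window by 28.6%, as many as in the Flt1 window by 46.3%, and as many as in the Flt4 or Tek window by 84.6%. Flt4, which fell, and Tek, which did not pass the test, thus had the same count. A match is a run of letters, not a bound site.

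The first comparison asks how the labelled cells of the Twist2 line differ from the unlabelled cells sorted from the same line. Kdr, Flt1, Flt4 and Tie1 fell in Tw2pos to between 0.145 and 0.220 of their Tw2neg means, Angpt1 rose 4.18-fold, and Vegfa, Vegfb, Vegfc, Angpt2 and Tek did not pass the test. All 10 genes passed the filter of a mean of 10 normalised counts. Of the 10 genes, 1 was called higher and 4 lower (limma on log2 of the normalised count plus 1, Benjamini-Hochberg adjusted p under 0.05). Among all 14155 genes tested, 38.6% were called, 18.7% higher and 20% lower. The median log2 difference was -0.06 over the 10 genes and -0.04 over all genes tested. The libraries of the groups did not overlap for 8 of the 10 genes, 4 higher and 4 lower in Tw2pos. That was also so for 76.3% of all genes tested, with 37.1% higher and 39.2% lower.

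**Figure D1:**
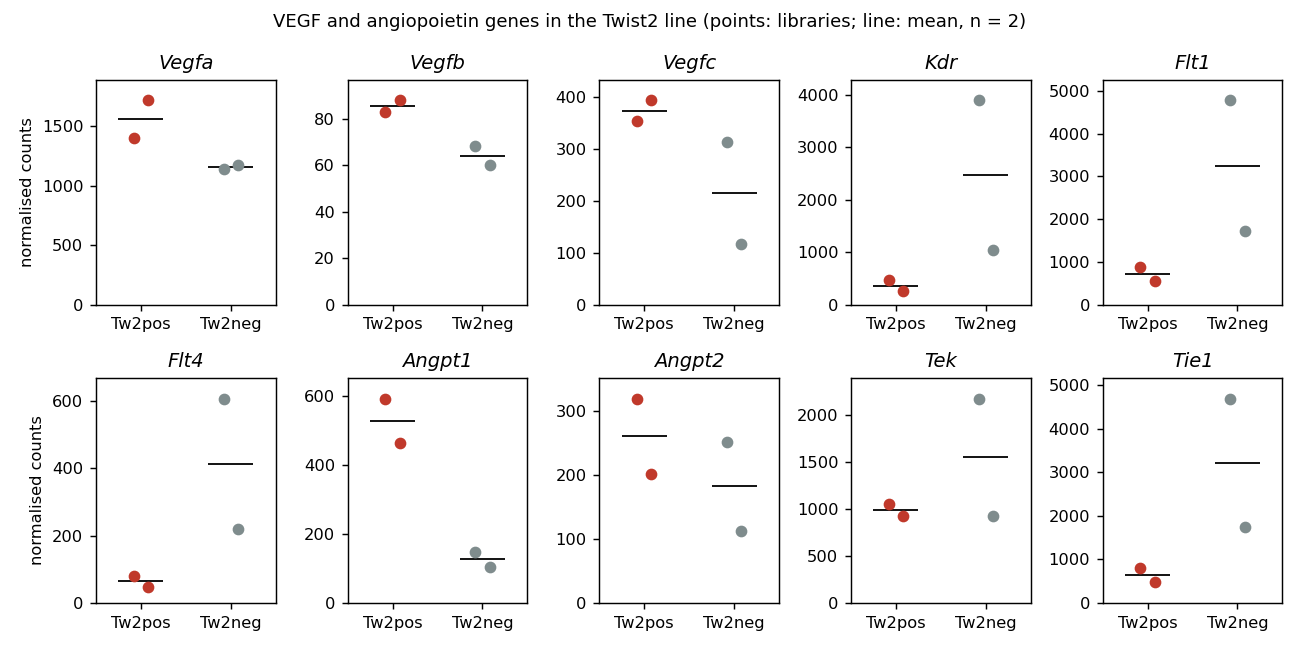
Normalised counts of the 10 genes in each library of the Twist2 line, one panel per gene, with Tw2pos left of Tw2neg; points are libraries and bars are group means, and each vertical axis starts at 0. The Tw2pos libraries lie below both Tw2neg libraries for Kdr, Flt1, Flt4 and Tie1 and above both for Angpt1, while the groups overlap for Tek and Angpt2.

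Among the ligands, Vegfa had 1404 and 1717 normalised counts in the Tw2pos libraries, against 1141 and 1175 in the Tw2neg libraries. Both Tw2pos libraries were the higher ones, but the log2 difference of 0.42 (SE 0.19) did not pass (adjusted p = 0.12, limma). Vegfb, whose product binds FLT1 but not KDR, had 82.9 and 88.0 normalised counts in Tw2pos, against 68.3 and 60.0 in Tw2neg. Its log2 difference of 0.41 (SE 0.28) did not pass either (adjusted p = 0.29, limma).

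With each library scaled by its total instead of by the size factors behind the deposited values, the log2 difference was -0.03 for Vegfa and -0.03 for Vegfb. That scaling moved the median over all genes tested to -0.49 and the genes called to 1607 higher and 5257 lower, against 2645 higher and 2825 lower with the deposited values, so the sign of these small differences rests on the scaling.

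Vegfc, the lymphatic growth factor, had 354 and 394 normalised counts in Tw2pos, against 313 and 117 in Tw2neg. The Tw2neg libraries stood farther from each other than the nearer of them stood from Tw2pos, and the log2 difference of 0.96 (SE 0.45) did not pass (adjusted p = 0.142, limma). Without Tw2neg library 1 it was 1.67 (adjusted p = 0.00453), and without Tw2neg library 2 it was 0.26.

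The VEGF receptors fell together. Kdr had 462 and 253 normalised counts in Tw2pos, against 3894 and 1042 in Tw2neg. The 2 groups did not overlap, and the difference between the Tw2neg libraries was larger than that between the lower of them and Tw2pos. The log2 difference was -2.55 (SE 0.62, adjusted p = 0.0235, limma).

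Flt1 had 871 and 561 normalised counts in Tw2pos, against 4783 and 1713 in Tw2neg. Its log2 difference was -2.03 (SE 0.49, adjusted p = 0.0229, limma). Flt4 had 80.3 and 48.2 normalised counts in Tw2pos, against 607 and 220 in Tw2neg. The log2 difference of Flt4 was -2.53 (SE 0.52, adjusted p = 0.0138, limma).

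Tie1, the partner of TEK, had 802 and 473 normalised counts in Tw2pos, against 4691 and 1736 in Tw2neg, and its log2 difference was -2.21 (SE 0.50, adjusted p = 0.0181, limma). In all 4 falling genes Tw2neg library 1 was far above Tw2neg library 2, and the size of the fall depended on which Tw2neg library was used. Without Tw2neg library 1 the log2 differences were -1.60 for Kdr, -1.29 for Flt1, -1.80 for Flt4 and -1.49 for Tie1, and without Tw2neg library 2 they were -3.51 for Kdr, -2.77 for Flt1, -3.26 for Flt4 and -2.93 for Tie1. Each of these 8 values passed the test. Flt1 lost its call without Tw2pos library 2 (-1.72, adjusted p = 0.0607), and Kdr and Flt1 lost it with no filter on low genes or with no variance trend in limma.

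Tek, the receptor of the angiopoietins, had 1052 and 929 normalised counts in Tw2pos, against 2177 and 931 in Tw2neg. The second Tw2neg library lay about 2 counts above the lower Tw2pos library, so the groups overlapped. The log2 difference of -0.53 (SE 0.39) did not pass (adjusted p = 0.328, limma), and without Tw2neg library 1 it was 0.09, whereas without Tw2neg library 2 it was -1.14 (adjusted p = 0.0111).

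Angpt1, the activating ligand, was the 1 gene of the 10 that rose. It had 593 and 463 normalised counts in Tw2pos, against 147 and 106 in Tw2neg. The groups stood well apart, and the log2 difference was 2.06 (SE 0.26, adjusted p = 0.00306, limma). It passed under 15 of 15 alternative settings, between 1.62 and 2.30. The gene lies on the minus strand of chr15:42424723-42676977 (GRCm38). Of its annotated exon bases, 14.2% overlap the antisense gene Gm17473, and whether the counting used strand is not given in the sources, so reads of these genes may not be separable there.

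Angpt2, the context-dependent antagonist, had 319 and 201 normalised counts in Tw2pos, against 251 and 112 in Tw2neg. The groups overlapped, and the log2 difference of 0.59 (SE 0.44) did not pass (adjusted p = 0.322, limma). Without Tw2neg library 1 it was 1.17 (adjusted p = 0.0473), and without Tw2neg library 2 it was 0.01. The gene lies within the Mcph1 locus on the opposite strand but shares no exon base with it. The ratio of Angpt1 to Angpt2, each per kilobase of exon, was 1.32 and 1.63 in Tw2pos, against 0.415 and 0.668 in Tw2neg. Angpt1 was thus the higher of the pair in both Tw2pos libraries and Angpt2 in both Tw2neg libraries. An exact two-sided permutation test of the log2 ratio gave p = 0.333, the smallest p that groups of 2 and 2 allow.

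To compare levels between genes, values were divided by exon length. On the scale of normalised counts per kilobase, the order in Tw2pos was Vegfa at 364 ± 51.8, Tek at 210 ± 18.5, Vegfc at 153 ± 11.5, Tie1 at 130 ± 47.3 and Angpt1 at 101 ± 17.6 (SD, n = 2). It continued with Angpt2 at 70.5 ± 22.5, Vegfb at 53.2 ± 2.28, Flt1 at 53.0 ± 16.2, Kdr at 39.6 ± 16.3 and Flt4 at 7.81 ± 2.76. From Vegfc down to Kdr, the ranges of the mean ± 1 SD of each pair of neighbours overlapped, so the order within a pair is not resolved by them. Genes farther apart in this run could be separated: Vegfc was at 145 and 161 in the Tw2pos libraries, against 51.1 and 28.0 for Kdr. Vegfa, Tek and Flt4 were separated from their neighbours by more than the SDs.

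In Tw2neg the order began with Tie1 at 654 ± 425, Tek at 330 ± 187, Kdr at 273 ± 223, Vegfa at 270 ± 5.69 and Flt1 at 241 ± 161 (SD, n = 2). It ended with Vegfc at 87.8 ± 56.7, Flt4 at 50.2 ± 33.2, Angpt2 at 49.2 ± 26.7, Vegfb at 40 ± 3.67 and Angpt1 at 24.3 ± 5.66. From Tie1 down to Vegfb, the ranges of each pair of neighbours overlapped, and Angpt1 alone was separated from its neighbour by this measure. Within each Tw2neg library Tie1 was the highest, at 954 in library 1 and 353 in library 2. The next highest were Tek at 462 in library 1 and Vegfa at 274 in library 2. A ligand, Vegfa, stood at the top in Tw2pos, and Angpt1 was last in Tw2neg but above 5 of the other genes in Tw2pos.

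The receptors moved with the endothelial markers. Of the 14 markers, 10 were called lower in Tw2pos and none higher, with a median log2 difference of -1.89, beside the sums given above. The part of these markers in the receptors' change was not tested. As a description chosen after the values were seen, each receptor was set against the summed markers of its own library. Kdr was 3.33% and 2.14% of that sum in Tw2pos, against 7.46% and 5.29% in Tw2neg. Flt1 was 6.28% and 4.74% in Tw2pos, against 9.17% and 8.70% in Tw2neg, and Tie1 was 5.78% and 4.0%, against 8.99% and 8.81%. Flt4 was 0.579% and 0.408% in Tw2pos, against 1.16% and 1.12% in Tw2neg. These 4 shares were thus lower in both Tw2pos libraries than in either Tw2neg library. The sum is weighted by its abundant members. Of the 14 markers, 4 were not called lower: Ly6c1, Eng, Erg and Ptprb. Ly6c1 and Eng made up 38.9% and 52.6% of the sum in Tw2pos, against 18.2% and 22.6% in Tw2neg. A sum of the 12 markers without Ly6c1 and Eng, which kept Erg and Ptprb, was also chosen after the values were seen. Of that sum, Flt1 was 10.3% and 10.0% in Tw2pos, against 11.2% and 11.2% in Tw2neg, and Tie1 was 9.46% and 8.44%, against 11% and 11.4%. Kdr was then 5.45% and 4.52% in Tw2pos, against 9.12% and 6.83% in Tw2neg, and Flt4 0.948% and 0.861%, against 1.42% and 1.44%. The shares still did not overlap, but the gap of Flt1 was small.

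Tek went the other way, at 7.58% and 7.85% of the sum of 14 markers in Tw2pos, against 4.17% and 4.72% in Tw2neg, and at 12.4% and 16.6% of the sum of 12 in Tw2pos, against 5.10% and 6.10% in Tw2neg. The ratio of Tek to Kdr per kilobase of exon was 4.37 and 7.03 in Tw2pos, against 1.07 and 1.71 in Tw2neg. The groups did not overlap, and the exact two-sided permutation test again gave the smallest possible p of 0.333.

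**Figure D2:**
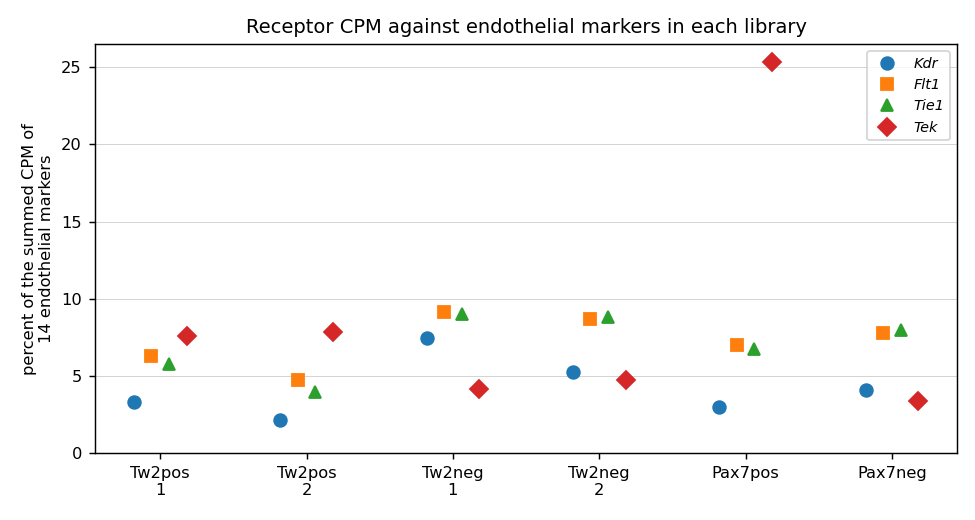
Receptor level of Kdr, Flt1, Tie1 and Tek, set against the summed CPM of the 14 endothelial markers, with 1 point per gene and library. In Pax7pos, where the marker sum is lowest at 179 CPM, Tek has 45.3 CPM, or 25.3% of that sum. Kdr, Flt1 and Tie1 have between 5.33 and 12.5 CPM there, or between 2.98% and 7.01% of the sum.

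Other genes of the pathway and relatives of its members were counted by list. Of 4 other VEGF ligands and co-receptors tested, 2 were called higher in Tw2pos and none lower. Pgf, placental growth factor and a ligand of FLT1, averaged 311 ± 47.4 normalised counts in Tw2pos and 127 ± 11.8 in Tw2neg (SD, n = 2 each; log2 difference 1.28, SE 0.23, adjusted p = 0.00944, limma). Figf, which encodes VEGF-D, averaged 180 ± 32.4 in Tw2pos and 82.3 ± 4.40 in Tw2neg (log2 difference 1.11, adjusted p = 0.0217, limma) and was named after its values were seen. Without Tw2pos library 2 neither Pgf (adjusted p = 0.123) nor Figf (adjusted p = 0.246) passed, and without Tw2pos library 1 Figf did not (adjusted p = 0.0992). With library total scaling Figf did not pass (log2 difference 0.66, adjusted p = 0.0877, limma), while Pgf did (0.83, adjusted p = 0.0284, limma). The co-receptor Nrp1 averaged 4633 ± 132 in Tw2pos and 3073 ± 1753 in Tw2neg and did not pass (log2 difference 0.72, adjusted p = 0.203, limma). Without Tw2neg library 1 the log2 difference of Nrp1 was 1.34 (adjusted p = 0.00435), and without Tw2neg library 2 it was 0.10. Nrp2, also named after its values were seen, averaged 928 ± 128 in Tw2pos and 1172 ± 457 in Tw2neg (adjusted p = 0.482, limma).

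Of 8 angiopoietin partners and relatives, 6 were called higher in Tw2pos and 1 (Dok2) lower. The 6 were Angpt4, Svep1, Itgb1 and the angiopoietin-like genes Angptl1, Angptl2 and Angptl4. Angpt4, a further ligand of TEK, averaged 254 ± 14.3 normalised counts in Tw2pos and 41.7 ± 26.2 in Tw2neg (SD, n = 2 each; log2 difference 2.73, SE 0.46, adjusted p = 0.00752, limma). Dok2, an adaptor that binds activated TEK and is abundant in blood cells, averaged 22.9 ± 3.49 in Tw2pos and 388 ± 76.9 in Tw2neg (log2 difference -4.02, SE 0.30, adjusted p = 0.000624, limma). Itgb1, the beta-1 integrin subunit and the gene of the 8 with the highest normalised count, stood at 13116 ± 223 in Tw2pos and 5856 ± 1799 in Tw2neg (log2 difference 1.20, adjusted p = 0.0258, limma), and did not pass without Tw2pos library 1 (adjusted p = 0.126) or library 2 (adjusted p = 0.149). Itgb1 also lost its call under quantile normalisation (log2 difference 0.61, adjusted p = 0.149, limma) and with library total scaling (0.75, adjusted p = 0.0601, limma). Ptprb, the endothelial phosphatase that restrains TEK, was the gene of the 8 not called here, and had 1929 and 1094 normalised counts in Tw2pos, against 7406 and 2220 in Tw2neg (log2 difference -1.48, adjusted p = 0.0907, limma). Without Tw2neg library 1 the log2 difference of Ptprb was -0.61, and without Tw2neg library 2 it was -2.35 (adjusted p = 0.0174). It also passed on CPM values of all 6 libraries (adjusted p = 0.0464), with library total scaling (adjusted p = 0.0221) and with DESeq2 (adjusted p = 0.00234). Ptprb is also 1 of the 14 endothelial markers.

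Of 12 genes of VEGF receptor signalling and its targets, 2 were called higher in Tw2pos and 4 lower. Esm1, endocan, a secreted proteoglycan of VEGF-stimulated endothelium, averaged 202 ± 65.7 normalised counts in Tw2pos and 43.7 ± 19.9 in Tw2neg (SD, n = 2 each; log2 difference 2.22, SE 0.42, adjusted p = 0.0108, limma), and did not pass without Tw2pos library 2 (adjusted p = 0.0635). Sh2d2a, a KDR-binding adaptor also known from T cells, averaged 20.3 ± 5.34 in Tw2pos and 799 ± 363 in Tw2neg (log2 difference -5.17, adjusted p = 0.000686, limma). Dll4, the Notch ligand of tip cells, and Nos3, endothelial nitric oxide synthase, were named after their values were seen. Dll4 had 173 and 123 normalised counts in Tw2pos, against 1294 and 562 in Tw2neg (adjusted p = 0.00669, limma), and Nos3 had 437 and 359, against 2073 and 1087 (adjusted p = 0.00744, limma). Nr4a1, an immediate early gene and the one of the 12 with the highest normalised count, averaged 20574 ± 774 in Tw2pos and 16296 ± 812 in Tw2neg and did not pass (adjusted p = 0.435, limma).

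Of 11 hypoxia regulators and targets tested, the class that controls Vegfa in many cells, 2 (Bnip3 and Egln1) were called higher in Tw2pos and 1 (Ankrd37) lower, with a median of -0.37. Bnip3, a mitophagy receptor, averaged 281 ± 35.4 normalised counts in Tw2pos and 142 ± 1.73 in Tw2neg (SD, n = 2 each; log2 difference 0.98, adjusted p = 0.0186, limma). Egln1, an oxygen-sensing prolyl hydroxylase named after its values were seen, averaged 741 ± 41.9 in Tw2pos and 477 ± 55.3 in Tw2neg (log2 difference 0.64, adjusted p = 0.0387, limma). Ankrd37 averaged 13.7 ± 2.29 in Tw2pos and 43.1 ± 5.76 in Tw2neg (log2 difference -1.59, adjusted p = 0.0254, limma). Bnip3 did not pass without either Tw2pos library (adjusted p = 0.111 without library 1 and 0.228 without library 2) or with library total scaling (adjusted p = 0.106). Egln1 lost its call without Tw2pos library 1 (adjusted p = 0.219), Tw2pos library 2 (adjusted p = 0.311) or Tw2neg library 2 (adjusted p = 0.0528), and had a log2 difference of 0.19 with library total scaling. Ankrd37 did not pass without Tw2pos library 1 (adjusted p = 0.0895), Tw2pos library 2 (adjusted p = 0.158) or Tw2neg library 2 (adjusted p = 0.0633), or with quantile normalisation (adjusted p = 0.0664). Ldha, lactate dehydrogenase A, with the highest normalised count of the list, did not pass (log2 difference -0.24, adjusted p = 0.378, limma).

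Markers of other cell types moved between the same groups. In Tw2pos, 7 of 10 markers of fibro-adipogenic progenitors, the mesenchymal stromal cells of muscle, were called higher and none lower. The 9 macrophage and monocyte markers were all called lower. Of 9 pericyte markers, 1 (Pdgfrb) was higher and none lower, and of 10 satellite cell markers, 1 was higher and 3 lower. Of 5 lymphatic markers tested, 2 (Pdpn and Reln) were higher and 2 (Lyve1 and Mmrn1) lower, and Ccl21a was at 0. Of 3 megakaryocyte and platelet markers tested, 1 was higher and 1 lower, and Gp6 was at 0. Of 6 haematopoietic progenitor markers, 1 was higher and 3 lower. The part of these cell types in the values of the VEGF and angiopoietin genes was not tested.

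**Figure D3:**
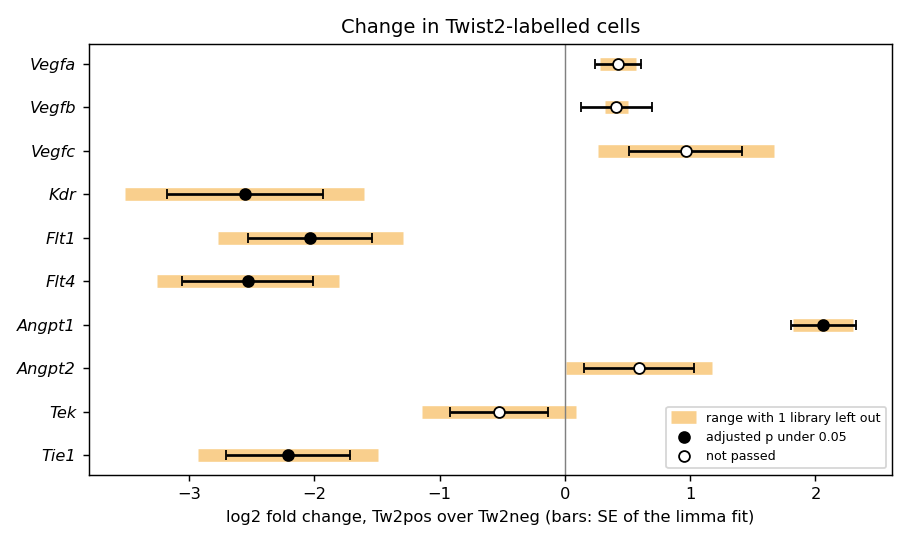
Log2 differences of the 10 genes for labelled against unlabelled cells in the Twist2 line, with standard errors from limma. Kdr, Flt1, Flt4 and Tie1 lie below -2, while Angpt1 stands at 2.06. Filled points passed the test and open points did not. Thick orange ranges span the log2 differences with each library left out in turn. The Pax7 line is not drawn. Its untested log2 difference of CPM plus 10 covers 8 genes. That difference was below -2 for Kdr, Flt1 and Tie1 and -0.03 for Angpt1.

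The second line allows the same contrast with 1 library a group, so it has no test. A difference was counted where log2 of CPM plus 10 changed by at least 2. In Pax7pos against Pax7neg, 3 of the 8 genes (Kdr, Flt1 and Tie1) were lower past that size and none higher. Of all 4939 genes, 18.4% were past it, with 3.83% higher and 14.6% lower. The median was -1.19 over the 8 genes and -0.43 over all genes.

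Vegfa stood at 558 CPM in Pax7pos (95% exact Poisson interval 543 to 573, counting error only), against 138 CPM in Pax7neg (132 to 145). That is 4.03-fold higher in the labelled cells, a log2 difference of 1.94 on the scale used, just inside the size limit. Kdr stood at 5.33 CPM in Pax7pos (51 reads, 3.97 to 7.0), against 74.2 CPM in Pax7neg. Flt1 stood at 12.5 CPM in Pax7pos, against 142 CPM in Pax7neg, and Tie1 at 12.1 CPM, against 146 CPM.

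Flt4 and Angpt2 were each at 1.78 CPM in Pax7pos (17 reads, 1.03 to 2.84), against 18.0 CPM of Flt4 and 15.9 CPM of Angpt2 in Pax7neg. The pseudocount of 10 holds their log2 differences at -1.25 and -1.14. Angpt1 was nearly level, at 12.2 CPM in Pax7pos (10.1 to 14.6) against 12.6 CPM in Pax7neg (10.7 to 14.7). Tek stood at 45.3 CPM in Pax7pos (434 reads, 41.2 to 49.8), against 61.5 CPM in Pax7neg (57.3 to 66.1). Tek was thus 25.3% of the summed endothelial markers in Pax7pos, against 3.38% in Pax7neg, and its ratio to Kdr per kilobase of exon was 16.3 in Pax7pos, against 1.59 in Pax7neg. Of the 14 endothelial markers, 11 were lower past the size limit in Pax7pos and none higher.

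**Figure D4:**
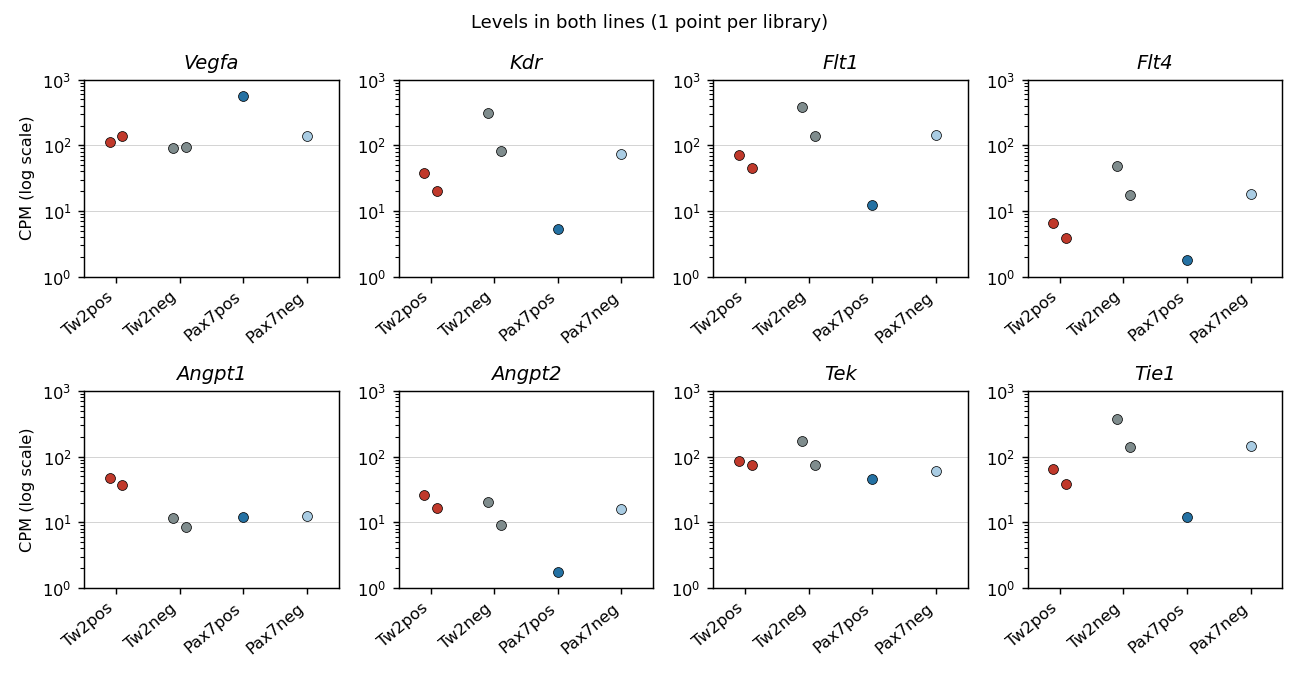
CPM of the 8 genes in all 6 libraries, one panel per gene, with Tw2pos, Tw2neg, Pax7pos and Pax7neg from left to right. Points are libraries. Vegfa reaches 558 CPM in Pax7pos and lies between 91.6 and 139 CPM in the other 5 libraries, and Angpt1 is at 47.9 and 37.4 CPM in Tw2pos and between 8.44 and 12.6 CPM in the others.

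The labelled cells of the lines were compared in a limma fit to log2 of CPM plus 1 over all 6 libraries, which takes the spread of the single Pax7 libraries to be that seen in the Twist2 line. In Tw2pos, 5 of the 8 genes (Kdr, Flt1, Tie1, Angpt1 and Angpt2) were called higher than in Pax7pos and 1 (Vegfa) lower. Among all 4939 genes, 58.8% were called, 33.7% higher and 25.1% lower. All genes of this table reach 10 CPM in 3 or more libraries and differ by 2-fold or more between Tw2neg and 1 or more of the other groups, so a high share of calls was built in. Among the 8 genes, Vegfa and Angpt2 met the 2-fold limit only through Pax7pos, and Angpt1 only through Tw2pos. For these genes a difference between Tw2pos and Pax7pos was largely a condition of entry. The libraries are those of the comparisons above, which are therefore not independent of this one. The median log2 difference was 1.83 over the 8 genes and 0.41 over all genes.

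Vegfa had 113 and 139 CPM in Tw2pos, against 558 CPM in Pax7pos, so both Twist2 libraries were far lower. Vegfa was selected through its Pax7pos value, and every alternative setting kept that selection. The log2 difference was -2.14 (SE 0.31, adjusted p = 0.00116, limma), and Vegfa was called under 11 of 11 alternative settings. Angpt1 had 47.9 and 37.4 CPM in Tw2pos, against 12.2 CPM in Pax7pos, and its log2 difference was 1.71 (SE 0.39, adjusted p = 0.00753, limma). Without Tw2pos library 1 the call was lost (adjusted p = 0.123).

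Angpt2 had 25.7 and 16.3 CPM in Tw2pos, against 1.78 CPM in Pax7pos. The log2 difference of Angpt2 was 2.95 (SE 0.54, adjusted p = 0.00319, limma). It rests on 17 reads in Pax7pos and was 1.92 with a pseudocount of 5 (adjusted p = 0.00805) and 1.39 under quantile normalisation (adjusted p = 0.109). Kdr had 37.3 and 20.5 CPM in Tw2pos, against 5.33 CPM in Pax7pos (log2 difference 2.18, SE 0.71, adjusted p = 0.0310, limma). With a pseudocount of 5, Kdr was no longer called (adjusted p = 0.0765). Flt1 had 70.3 and 45.3 CPM in Tw2pos, against 12.5 CPM in Pax7pos (log2 difference 2.09, adjusted p = 0.0167, limma), and Tie1 had 64.8 and 38.2 CPM, against 12.1 CPM (log2 difference 1.95, adjusted p = 0.0221, limma).

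Flt4, at 6.49 and 3.90 CPM in Tw2pos and 1.78 CPM in Pax7pos, did not pass (log2 difference 1.13, SE 0.62, adjusted p = 0.149, limma). Tek, at 85.0 and 75.0 CPM in Tw2pos and 45.3 CPM in Pax7pos, did not pass either (log2 difference 0.80, SE 0.49, adjusted p = 0.185, limma). Both passed without Tw2neg library 1 (adjusted p = 0.019 for Flt4 and 0.00542 for Tek) and without Tw2neg library 2 (adjusted p = 0.0149 for Flt4 and 0.00581 for Tek), with the same log2 differences as before. The endothelial markers again moved with the receptors: 11 of 14 were called higher in Tw2pos than in Pax7pos and none lower, and their summed level was 1121 and 955 CPM in Tw2pos, against 179 CPM in Pax7pos. Their part in the receptors' difference was not tested. Quantile normalisation, which moved the median over all genes to -0.15 and the genes called to 862 higher and 998 lower, against 1665 higher and 1240 lower, left Vegfa alone called among the 8, with Flt4 at -0.20.

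Whether the effect of the label differed between the lines was tested as an interaction in the same fit. It passed for 3 of the 8 genes, Angpt1 and Angpt2 upward and Vegfa downward, where 35.7% of all 4939 genes passed, 23.2% upward and 12.5% downward. With TMM factors the split over all genes was 980 upward and 1110 downward, against 1145 upward and 619 downward. For Angpt1 the label effect of the Twist2 line exceeded that of the Pax7 line by 2.02 on the log2 scale (SE 0.55, adjusted p = 0.0259, limma). For Angpt2 the excess was 3.17 (SE 0.77, adjusted p = 0.0167, limma). In Angpt2 the labelled cells had 25.7 and 16.3 CPM, against 20.2 and 8.95 CPM in unlabelled cells of the Twist2 line, and 1.78 CPM, against 15.9 CPM, in the Pax7 line.

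For Vegfa the interaction was -1.57 (SE 0.44, adjusted p = 0.0278, limma). Vegfa had 113 and 139 CPM in Tw2pos, against 91.6 and 94.0 CPM in Tw2neg, and 558 CPM in Pax7pos, against 138 CPM in Pax7neg. Vegfa and Angpt2 met the 2-fold limit of the selection against Tw2neg only through Pax7pos, and Angpt1 only through Tw2pos. The same groups enter the interaction, so these 3 calls were partly built in by the selection. The 3 calls were also not robust to the libraries used. Without Tw2pos library 1 none of them passed (adjusted p = 0.198 for Vegfa, 0.230 for Angpt1 and 0.0539 for Angpt2), and without Tw2pos library 2 only Angpt2 did. Under quantile normalisation none passed.

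For the receptors the interaction did not pass. It was 1.07 for Kdr (SE 1.01, adjusted p = 0.426, limma), 1.39 for Flt1 (adjusted p = 0.212), 1.31 for Tie1 (adjusted p = 0.241), 0.45 for Flt4 (adjusted p = 0.702) and -0.08 for Tek (adjusted p = 0.938). These values too depended on the Tw2neg libraries. Without Tw2neg library 1 the interaction passed for Kdr (2.01, adjusted p = 0.00975), Flt1 (2.13, adjusted p = 0.0031) and Tie1 (2.03, adjusted p = 0.00644), and without Tw2neg library 2 it was 0.12 for Kdr, 0.65 for Flt1 and 0.59 for Tie1, none of which passed.

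The unlabelled cells of the lines served as a check on the background against which the labelled cells were set. None of the 8 genes was called between Tw2neg and Pax7neg, and neither was nearly any other gene: limma called 3 of 4939 (0.0607%), Fam132b, Gal and Asb5, all higher in Tw2neg, with 769 at an unadjusted p under 0.05, and edgeR called 0. These 3 genes were named after their values were seen. Each unlabelled pool lacks the labelled cells of its own line, so the pools differ by design. Pax7 averaged 30.3 CPM in Tw2neg, against 0.402 CPM in Pax7neg (log2 difference 4.28). The median log2 difference was 2.29 over 8 satellite cell markers and -1.28 over 10 fibro-adipogenic progenitor markers, against -0.06 over all genes. None of these markers passed the test. The Tw2neg libraries bracketed the Pax7neg library in Flt4, with 48.7 and 17.6 CPM in Tw2neg, against 18.0 CPM in Pax7neg. They did so too in Angpt2, with 20.2 and 8.95 CPM in Tw2neg, against 15.9 CPM in Pax7neg, and in Flt1 and Tie1, with 384 and 137 CPM of Flt1 in Tw2neg, against 142 CPM in Pax7neg, and 377 and 139 CPM of Tie1, against 146 CPM. Both Tw2neg libraries lay above Pax7neg for Kdr, with 313 and 83.3 CPM, against 74.2 CPM, and for Tek, with 175 and 74.4 CPM, against 61.5 CPM. Both lay below it for Vegfa, with 91.6 and 94.0 CPM, against 138 CPM, and for Angpt1, with 11.8 and 8.44 CPM, against 12.6 CPM. The spread of the Tw2neg libraries sets how small a difference could have been called here: without Tw2neg library 1, 1049 genes were called, and without Tw2neg library 2, 894. Without library 2, all 5 receptor genes were called higher in Tw2neg, from Kdr at a log2 difference of 2.06 (adjusted p = 0.0178) to Tie1 at 1.36 (adjusted p = 0.0390), and without library 1 none of the 8 genes was.

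By the measure of likeness used, Pearson's r of log2 of CPM plus 1 over the 6 libraries among 3762 genes averaging 20 CPM or more, the 5 genes most like Kdr were Arhgef15 (r = 0.9988), Cd300lg (r = 0.9987), Ccm2l (r = 0.9984), Abcb1a (r = 0.9980) and She (r = 0.9970). Those most like Angpt1 were Cdh2 (r = 0.9956), Wipi1 (r = 0.9953), Ptpn13 (r = 0.9940), Hhip (r = 0.9938) and Slc35a1 (r = 0.9927). The 6 points are 4 groups, the libraries of a group share their sort gate and line, and the highest of so many such values are bound to be close to 1. Cdh2, N-cadherin, averaged 61.0 CPM in Tw2pos, against 7.78 CPM in Tw2neg, with 9.09 CPM in Pax7pos, against 9.32 CPM in Pax7neg, so that, as for Angpt1, Tw2pos alone stood far above the rest. Arhgef15, a guanine nucleotide exchange factor known from endothelial cells, averaged 13.5 CPM in Tw2pos, against 66.0 CPM in Tw2neg, with 2.51 CPM in Pax7pos, against 27.7 CPM in Pax7neg.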

How the data were processed

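RNA sequencing libraries of 6 samples were used. Per the submitters' processing notes, TopHat2 2.0.0, DESeq2 1.6.3 and builds GRCm38 and mm10 were used, while the sources give neither the counting program nor its annotation and strand setting. The authors deposited gene-level signal values for the 4 Twist2 libraries (read counts divided by size factors, here called normalised counts), and every value (100%, tolerance 0.01) was a whole multiple of its library's step for 1 read. The authors deposited a second table of CPM values for the 2 Pax7 libraries, with log2 ratios to the Tw2neg mean. Twist2 CPM per library were rebuilt from the recovered reads and the deposited group means.

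The members and gene lists were chosen with earlier results of these data known. Genes with a mean of at least 10 normalised counts (14155) or all 4939 genes of the CPM table were fitted with limma 3.58.1 with a variance trend (R 4.3.3) on log2 of the value plus 1, with Benjamini-Hochberg adjustment and a threshold of 0.05. The Pax7 line alone has no test. The scripts were tested on simulated data. There the interaction recovered 0% of 2-fold, 20.9% of 4-fold and 72.7% of 8-fold changes, so smaller differences could rarely pass. False calls were 7.05% of calls for Tw2pos against Tw2neg and 11.3% for Tw2pos against Pax7pos. They were 5.38% for Tw2neg against Pax7neg and 4.62% for the interaction. The simulation changed only a small part of the genes and did not repeat the 2-fold selection. These shares of false calls therefore do not carry over to the data. edgeR 4.0.16 and DESeq2 1.42.0 ran on recovered reads as alternatives, beside other pseudocounts, filters, scalings, a replicate block and leaving out each Twist2 library. Named beside the members were Twist2, Pax7, the most abundant and most changed gene of each signalling list (marker lists are given by counts), a few genes chosen after their values were seen, and the 5 genes most like Kdr and Angpt1. Symbols were matched exactly. Exon lengths came from the GENCODE annotation of GRCm38 and promoter sequences from RefSeq. Poisson intervals cover counting error only.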

Additional observations from a re-analysis of the deposited data

Results flagged for a closer look

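The effect of the label differed between the Twist2 and Pax7 lines, by the interaction test, for 3 of the 8 genes measured in both. The log2 value was -1.57 for Vegfa, 2.02 for Angpt1 and 3.17 for Angpt2 (limma). Of all 4939 genes, 35.7% passed the same test, close to the share among the 8. Vegfa and Angpt2 met the 2-fold limit of the selection against Tw2neg only through Pax7pos, and Angpt1 only through Tw2pos. A difference in the effect of the label was thus partly built in for these 3 genes. None of the 3 passed without Tw2pos library 1 or under quantile normalisation. Angpt1 averaged 42.7 ± 7.40 CPM in Tw2pos and 10.1 ± 2.39 CPM in Tw2neg (SD, n = 2 each), with 12.2 CPM in Pax7pos, against 12.6 CPM in Pax7neg. The Pax7 line has 1 library a group, so its spread is borrowed from the Twist2 line.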

How the results depend on the processing

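The depth limits the values of Flt4 and Angpt2 in Pax7pos (17 reads each), and the 2 residual degrees of freedom limit every test. For Tw2pos against Tw2neg, Angpt1, Flt4 and Tie1 were called under 15 of 15 settings. Of 14155 genes, 5470 were called, and 3097 of the 4939 genes of the CPM table when all 6 libraries were fitted; of the 14155, between 2578 and 7370 were called with 1 library left out. Of the 5 members called, 3 were with no variance trend and 3 with no filter on low values.

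For Tw2pos against Pax7pos, 2905 genes were called, 1860 under quantile normalisation, 1501 among genes averaging 50 CPM or more and between 1658 and 3817 with 1 library left out; of the 6 members, 1 was under quantile normalisation. For Tw2neg against Pax7neg, the 3 genes became 1 with a pseudocount of 5, 1 under quantile normalisation, 1 with no variance trend, 60 with TMM, 305 with the replicate block, 18 at 50 CPM, 0 with edgeR and between 47 and 1049 with 1 library left out; of the members, 0 became 1 with the replicate block (Kdr) and between 0 and 5 with 1 library left out. For the interaction, 1764 genes became 962 under quantile normalisation, 979 at 50 CPM and between 952 and 3173 with 1 library left out, and the 3 members became 0, 1 and between 0 and 6 in the same settings. In the Pax7 line, 908 genes and 3 members became 1640 and 6 with a pseudocount of 1, and 238 and 0 with 50.

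The replicate numbers are not said to pair the samples, and same-numbered deviations correlated at 0.263 over 14155 genes. With the replicate block 6627 genes were called for Tw2pos against Tw2neg, and 6 members, Vegfc among them, as well as Nrp1 and Ptprb; 8 members were called for Tw2pos against Pax7pos and 5 for the interaction, Flt1 and Tie1 among them.

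Signs turned only for values that did not pass the test with the main settings and all libraries. Some of these values passed in another setting, as Tek did at -1.14 without Tw2neg library 2. For Tw2pos against Tw2neg, Nr4a1 was -0.51 under quantile normalisation, and library total scaling gave -0.11 for Nr4a1, -0.03 for Vegfa and -0.03 for Vegfb. With 1 library left out, Tek lay between -1.14 and 0.09 and Nrp2 between -0.69 and 0.12. For Tw2pos against Pax7pos, quantile normalisation gave -0.20 for Flt4. For Tw2neg against Pax7neg, Angpt2 was 0.21 with the replicate block and between -0.77 and 0.32 with 1 library left out, where Flt1 lay between -0.05 and 1.43, Flt4 between -0.03 and 1.39 and Tie1 between -0.07 and 1.36. For the interaction, Flt4 was -0.02 with a pseudocount of 5, -1.06 under quantile normalisation and between -0.26 and 1.16 with 1 library left out; Kdr was -0.31 under quantile normalisation; Tek lay between -0.69 and 0.53 with 1 library left out. The cause was not tested.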
